A study of Mus musculus with 24 samples.

Results

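The repressor limb of the circadian clock was followed through 1 day in mouse heart in 7 transcripts, namely Per1 and Per3 of the PERIOD family, the cryptochromes Cry1 and Cry2, Ciart, which encodes CHRONO, and Bhlhe40 and Bhlhe41, which encode DEC1 and DEC2. The members were chosen by name, as genes with a probe set that lists no other gene symbol, and each was measured by 1 probe set. They are 7 of the 22180 genes measured in this way. Cry2 has a further probe set that it shares with another gene and Per2 has only such a shared probe set, and neither probe set was used. The samples were myocardium from wild-type C57Bl/6 males aged 8 weeks, in cycles of 12 h of light and 12 h of darkness, and no mouse carried an edited allele or received an agent in the labels. Collection covered the light phase with ZT03, ZT07, ZT11 and the dark phase with ZT15, ZT19, ZT23, where ZT is zeitgeber time, the hours since lights-on. Each time point has 4 arrays, 24 in all, described in the labels as biological replicates. The labels do not say whether each array is a mouse of its own, so p-values measure the spread between these arrays.

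Each value is a difference, read as log2, from the median of that gene over the 24 arrays. No expression level is kept, so one gene cannot be called more abundant than another, and heart markers could not be checked by their level. The base of the logarithm is not given and base 2 is an assumption on which all fold changes rest. Arrays differed little in their medians, and the 3 arrays with the largest SD over all probe sets were replicate 1 of ZT15 (0.171), replicate 4 of ZT23 (0.155) and replicate 4 of ZT07 (0.153). The times cover a single day, so a 24-h rhythm means a pattern over that day, and an effect of the light cycle and an internal rhythm cannot be told apart. In whole tissue, fewer cells of a type and less RNA per cell cannot be told apart either.

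In the mammalian clock, the factors CLOCK and BMAL1 (encoded by Arntl) bind E-box sequences and activate the genes of their own repressors. PER and CRY proteins gather in a complex that enters the nucleus and inhibits CLOCK and BMAL1, with CRY the stronger repressor and PER the partner that brings it there. CHRONO binds BMAL1 and represses with the help of histone deacetylases, and the DEC proteins, basic helix-loop-helix factors, occupy E-boxes themselves. A second loop acts through D-boxes, which are bound by the activators DBP, TEF and HLF and by the repressor NFIL3.

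All 7 repressor transcripts had a 24-h rhythm, where 7.61% of all 22180 genes did (limma's moderated F test of a cosine and a sine term, adjusted p below 0.05). All 7 also differed among the 6 times when no waveform was assumed, against 4.72% of all genes. The median amplitude, which is the peak minus the mean of the fitted cosine, was 0.48 over the members and 0.040 over all genes on the log2 scale. Ordered by amplitude among the 22180 genes, Per1 stood at rank 5, Per3 at 8, Ciart at 13, Cry1 at 46, Bhlhe41 at 77, Cry2 at 127 and Bhlhe40 at 139. By the fitted cosine, Per1, Ciart, Bhlhe40 and Bhlhe41 peaked in the late light phase, Per3 at about lights-off, Cry2 just after it and Cry1 in the middle of the night. The highest time mean was at ZT07 for Bhlhe40 and at ZT11 for Cry2. Membership in the clock was known when these genes were chosen, so the count of 7 is a description of the family and not independent evidence.

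**Figure D1:**
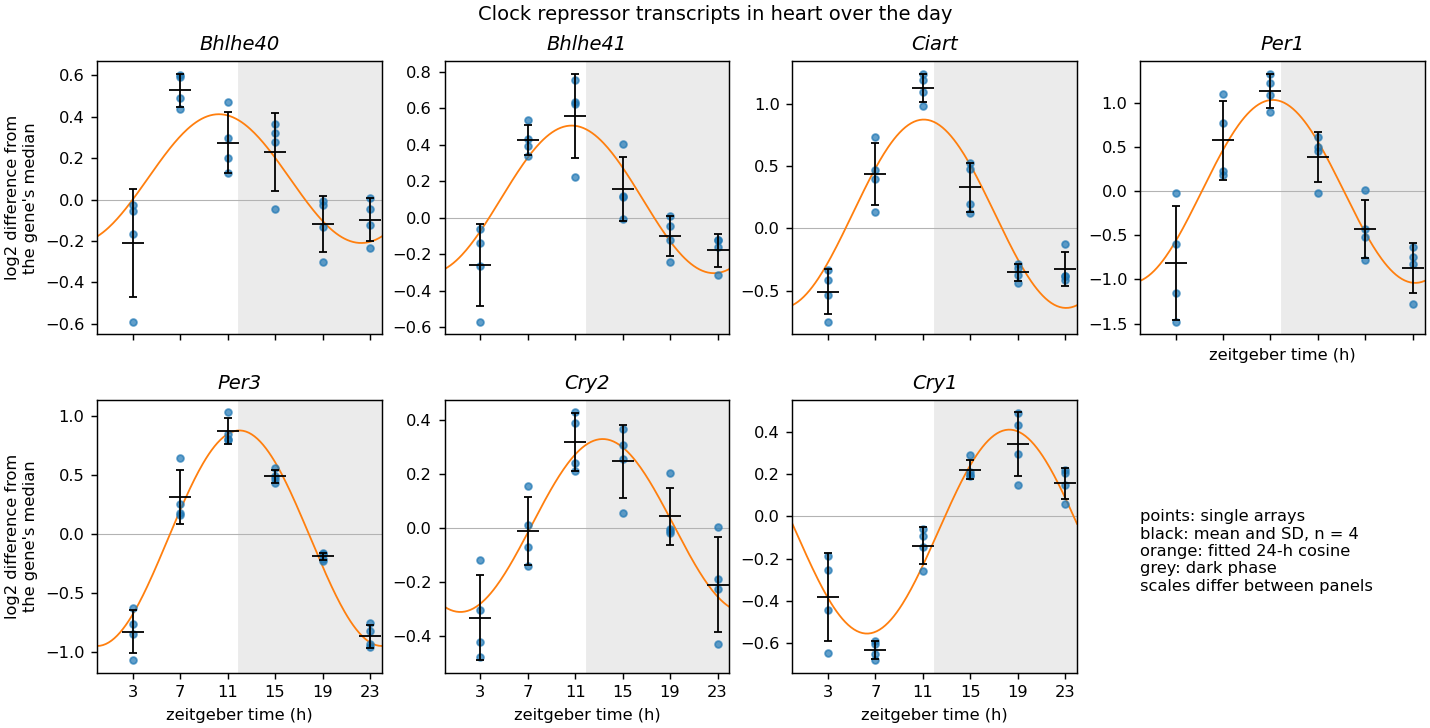
Log2 difference from each gene's median (vertical axis) against zeitgeber time in hours (horizontal axis) for the 7 repressor transcripts, ordered by peak time, with 1 point per array, the mean and SD of 4 arrays in black and the fitted 24-h cosine in orange. The 4 ZT11 arrays of Per3 and of Ciart lie above all their other arrays, whereas Cry1 is near its lowest values at ZT07 and highest at ZT19.

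Promoter sequences show which of the clock's binding motifs lie near the start of these genes. The 250 bases before the annotated start were taken from RefSeq promoters of the mouse build GRCm38.p6, which held 7 windows for 6 of the 7 members, with a pair of starts for Per1. They were searched on both strands for the E-box CACGTG, its variant CACGTT (the E'-box), the D-box TTATGTAA or TTACGTAA, the cyclic AMP response element TGACGTCA and the REV-ERB and ROR core TAGGTCA. In the windows of the members no match overlapped a match to another motif. Of the 7 windows 4 held an E-box, a motif present in 6.02% of all 32851 windows of the same length, and 2 held an E'-box (3.85% of all windows). The response element (1.55% of all windows) and the REV-ERB and ROR core (2.23%) had 0 matches in the 7. A match is a stretch of letters and not a site shown to be bound in heart. Sequences are printed 5′ to 3′ in lower case with the matched motifs in capitals, for the PER, CRY and CHRONO genes whose timing is compared.

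**Figure D2:**
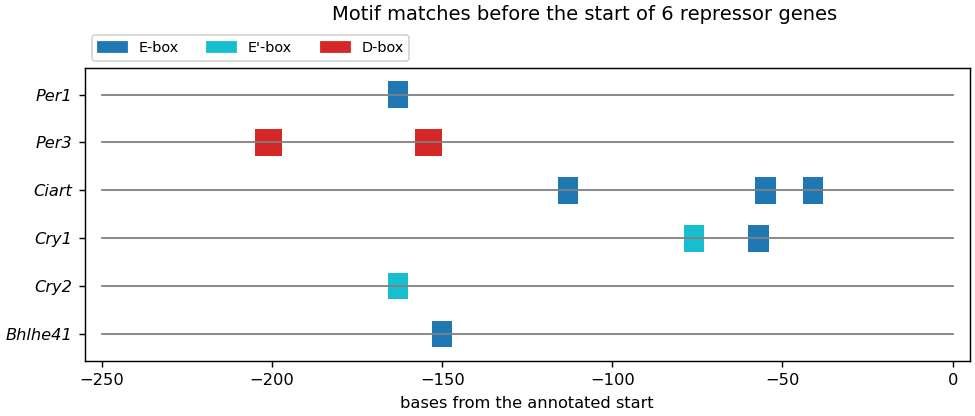
Positions of the motif matches in the 250 bases before the annotated start of 6 repressor genes (horizontal axis, bases from the start; 1 row per gene), with E-boxes in blue, E'-boxes in cyan and D-boxes in red. For Per1 the upstream of the pair of starts searched is drawn. Ciart has 3 E-boxes, and Per3 has 2 D-boxes.

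The PERIOD genes were low from the end of the night to the early light phase and high around ZT11. For Per1 an E-box lies 166 bases before the upstream of the pair of starts searched, while the window of its other start had 0 matches to the motifs searched. The annotated gene Per1 begins further upstream, at chr11:69095108, where no window was searched. D-boxes lie 205 and 158 bases before the start of Per3. A D-box occurs in 0.931% of all windows and at least 2 in 0.0213% of all windows.
Per1 (chr11:69098699-69098948, plus strand): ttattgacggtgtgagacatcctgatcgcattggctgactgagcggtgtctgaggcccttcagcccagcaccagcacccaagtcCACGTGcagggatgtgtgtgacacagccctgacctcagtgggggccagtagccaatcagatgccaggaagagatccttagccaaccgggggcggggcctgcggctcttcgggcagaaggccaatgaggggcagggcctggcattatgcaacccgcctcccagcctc
Per3 (chr4:151044666-151044915, minus strand): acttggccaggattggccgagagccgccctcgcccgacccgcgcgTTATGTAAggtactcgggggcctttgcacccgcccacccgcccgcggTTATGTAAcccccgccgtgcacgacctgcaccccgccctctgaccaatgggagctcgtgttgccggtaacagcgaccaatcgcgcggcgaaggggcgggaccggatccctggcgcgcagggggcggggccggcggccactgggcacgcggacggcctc

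Per1 encodes a PER protein whose gene also answers quickly to hormones and other inputs. In the light its 4 arrays, in the order of replicates 1 to 4, read -1.48, -1.16, -0.60 and -0.016 at ZT03, 0.19, 0.23, 0.77 and 1.10 at ZT07, and 0.90, 1.09, 1.22 and 1.33 at ZT11. In the dark they read 0.50, 0.45, 0.62 and -0.027 at ZT15, 0.016, -0.79, -0.43 and -0.52 at ZT19, and -0.75, -0.82, -0.63 and -1.28 at ZT23. The arrays at ZT11 were the highest as a group, although the highest ZT07 array lay within their range, and those at ZT03 were spread most widely and overlapped with all 3 dark-phase times. Per1 followed a cosine of amplitude 1.04 (SE 0.11), or 4.20-fold between trough and peak, that peaked at ZT 11.2 (SE 0.396 h, limma, adjusted p = 2.46e-06). Its mean rose by 1.39 ± 0.26 (SE, adjusted p = 0.0164) from ZT03 to ZT07. That call rests on few arrays, since it was lost without any one of replicates 1 and 2 of ZT03 (adjusted p = 0.0891 and 0.0965 in limma) or replicates 3 and 4 of ZT07 (0.0766 and 0.0950).

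Per3, the PER family member held to be least needed for the rhythm itself, had the largest share of variance between times among the 7. Its light-phase arrays read -1.07, -0.85, -0.77 and -0.63 at ZT03, 0.25, 0.18, 0.16 and 0.65 at ZT07, and 0.80, 1.03, 0.85 and 0.79 at ZT11. Its dark-phase arrays read 0.49, 0.43, 0.47 and 0.56 at ZT15, -0.17, -0.23, -0.21 and -0.16 at ZT19, and -0.93, -0.96, -0.83 and -0.76 at ZT23. All 4 arrays at ZT11 were above every array of the other times, those at ZT19 lay close together, and ZT23 and ZT03 overlapped at the bottom. Per3 followed a cosine of amplitude 0.91 (SE 0.045), or 3.55-fold between trough and peak, that peaked at ZT 12.0 (SE 0.188 h, limma, adjusted p = 4.74e-12). Time of day accounted for 96.8% of the variance of Per3 over the 24 arrays, against 83.0% for Per1, whose SD within times was 0.39 against 0.14. Between neighbouring times Per3 rose by 1.14 ± 0.091 (SE, adjusted p = 2.26e-07) from ZT03 to ZT07 and by 0.56 ± 0.091 (SE, adjusted p = 0.00400) from ZT07 to ZT11. The difference from ZT11 to ZT15 was -0.38 ± 0.091 (SE, adjusted p = 0.113), and it was called without ZT07 replicate 4 (adjusted p = 0.0185). Per3 then fell by 0.68 from ZT15 to ZT19 (adjusted p = 9.99e-04) and by 0.68 from ZT19 to ZT23 (adjusted p = 0.00140). From ZT23 to ZT03 the difference was 0.040 ± 0.091 (SE, adjusted p = 0.922).

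The cryptochromes did not share a peak. Cry2 was highest from ZT11 to ZT15 and Cry1 from ZT15 to ZT23, and the promoters of both hold an E'-box, 166 bases before the start in Cry2 and 79 in Cry1. Cry1 has in addition an E-box 60 bases before its start.
Cry1 (chr10:85185055-85185304, minus strand): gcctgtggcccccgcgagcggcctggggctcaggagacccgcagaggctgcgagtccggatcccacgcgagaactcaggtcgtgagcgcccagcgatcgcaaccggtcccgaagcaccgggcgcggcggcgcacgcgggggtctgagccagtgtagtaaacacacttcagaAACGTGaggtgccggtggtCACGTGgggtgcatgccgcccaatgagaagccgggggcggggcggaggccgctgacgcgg
Cry2 (chr2:92434070-92434319, minus strand): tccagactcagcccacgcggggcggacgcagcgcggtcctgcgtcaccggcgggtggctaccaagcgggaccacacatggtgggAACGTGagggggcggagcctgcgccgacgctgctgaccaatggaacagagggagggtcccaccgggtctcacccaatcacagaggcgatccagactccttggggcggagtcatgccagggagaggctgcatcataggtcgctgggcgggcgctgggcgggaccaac

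Cry1 encodes a strong repressor of CLOCK and BMAL1. Its light-phase arrays read -0.25, -0.44, -0.19 and -0.65 at ZT03, -0.59, -0.65, -0.68 and -0.61 at ZT07, and -0.14, -0.26, -0.094 and -0.058 at ZT11. Its dark-phase arrays read 0.21, 0.19, 0.20 and 0.29 at ZT15, 0.30, 0.15, 0.49 and 0.44 at ZT19, and 0.20, 0.058, 0.15 and 0.22 at ZT23. The 4 arrays at ZT07 lay close together and overlapped only with ZT03, and all 12 dark-phase arrays were above all 12 light-phase arrays. Cry1 followed a cosine of amplitude 0.48 (SE 0.036), or 1.96-fold between trough and peak, that peaked at ZT 18.3 (SE 0.282 h, limma, adjusted p = 7.97e-09). Its mean fell by 0.54 from ZT23 to ZT03 (SE 0.080, adjusted p = 0.00161), and rose by 0.49 ± 0.080 (SE, adjusted p = 0.00371) from ZT07 to ZT11. From ZT11 to ZT15 it differed by 0.36 ± 0.080 (SE, adjusted p = 0.0668), and this was called without ZT03 replicate 3, ZT03 replicate 4 or ZT19 replicate 2 (adjusted p = 0.0438, 0.0206 and 0.0477). From ZT15 to ZT19 the difference was 0.12 ± 0.080 (SE, adjusted p = 0.685).

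Cry2, a CRY paralog with a weaker repressor function, had smaller changes. Its arrays in the light read -0.48, -0.30, -0.42 and -0.12 at ZT03, -0.072, -0.14, 0.011 and 0.15 at ZT07, and 0.24, 0.21, 0.39 and 0.43 at ZT11. Those in the dark read 0.25, 0.31, 0.055 and 0.37 at ZT15, 0.20, -0.018, -0.0044 and -0.011 at ZT19, and -0.23, -0.43, 0.0044 and -0.19 at ZT23. The ZT11 and ZT15 arrays overlapped at the top, the highest ZT07 array lay above the lowest of ZT15, and ZT03 overlapped with ZT23 and ZT07 at the bottom. Cry2 followed a cosine of amplitude 0.32 (SE 0.037), or 1.56-fold between trough and peak, that peaked at ZT 13.3 (SE 0.443 h, limma, adjusted p = 1.14e-05). Of its 6 steps between neighbouring times 0 passed limma's test and 4 had an unadjusted p below 0.05, the largest being 0.33 ± 0.092 (SE, adjusted p = 0.203) from ZT07 to ZT11. On the same array, the difference of Cry1 minus Cry2 had a mean of -0.62 ± 0.12 (SD, n = 4) at ZT07 and -0.46 ± 0.047 at ZT11, while in the dark it went from -0.023 ± 0.11 at ZT15 through 0.30 ± 0.20 at ZT19 to 0.37 ± 0.15 at ZT23. At ZT03 the arrays ranged from -0.53 to 0.23. The 4 arrays of ZT07 and of ZT11 did not overlap with those of ZT15, ZT19 or ZT23. The zero of this difference is set by the medians and does not mark equal abundance.

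Ciart, whose product CHRONO represses through BMAL1, was highest at ZT11. Its promoter holds 3 E-boxes, 116, 58 and 44 bases before the start, and 0.0609% of all windows have at least 3.
Ciart (chr3:95882229-95882478, minus strand): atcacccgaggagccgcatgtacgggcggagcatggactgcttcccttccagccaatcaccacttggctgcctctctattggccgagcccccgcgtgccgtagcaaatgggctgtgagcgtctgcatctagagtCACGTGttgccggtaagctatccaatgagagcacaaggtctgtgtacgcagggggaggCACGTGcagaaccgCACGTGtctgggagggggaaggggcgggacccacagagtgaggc

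In the light the arrays of Ciart read -0.42, -0.33, -0.75 and -0.54 at ZT03, 0.40, 0.13, 0.47 and 0.74 at ZT07, and 0.98, 1.10, 1.24 and 1.19 at ZT11. In the dark they read 0.13, 0.48, 0.52 and 0.20 at ZT15, -0.32, -0.37, -0.44 and -0.28 at ZT19, and -0.38, -0.41, -0.38 and -0.13 at ZT23. All 4 arrays at ZT11 were above those of every other time, ZT07 and ZT15 overlapped at intermediate values, and ZT19, ZT23 and ZT03 overlapped at the bottom. Ciart followed a cosine of amplitude 0.76 (SE 0.074), or 2.85-fold between trough and peak, that peaked at ZT 11.1 (SE 0.372 h, limma, adjusted p = 8.64e-07). Its measured range was wider than that of the cosine, with 1.13 ± 0.12 (SD, n = 4) at ZT11 and -0.51 ± 0.18 at ZT03, a 3.11-fold difference. It rose by 0.94 ± 0.11 (SE, adjusted p = 8.31e-05) from ZT03 to ZT07 and by 0.69 ± 0.11 (SE, adjusted p = 0.00370) from ZT07 to ZT11. It then fell by 0.80 from ZT11 to ZT15 (adjusted p = 0.00328) and by 0.68 from ZT15 to ZT19 (adjusted p = 0.00563). From ZT19 to ZT23 the difference was 0.027 ± 0.11 (SE, adjusted p = 0.969). The step from ZT07 to ZT11 was 0.49 and not called when arrays were scaled to the same quantiles (adjusted p = 0.0933).

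The DEC genes rose early in the light. Bhlhe40, which encodes DEC1 and is also induced by hypoxia and other stresses, read -0.59, -0.028, -0.17 and -0.056 at ZT03, 0.43, 0.49, 0.60 and 0.59 at ZT07, and 0.20, 0.30, 0.47 and 0.13 at ZT11. In the dark it read -0.048, 0.28, 0.32 and 0.37 at ZT15, -0.028, -0.13, -0.30 and -0.0080 at ZT19, and -0.12, -0.047, -0.23 and 0.0080 at ZT23. It was the only one of the 7 with its highest mean at ZT07 (0.53 ± 0.080, SD, n = 4), where the lowest array was below the highest array of ZT11. Bhlhe40 followed a cosine of amplitude 0.31 (SE 0.059), or 1.54-fold between trough and peak, that peaked at ZT 10.3 (SE 0.720 h, limma, adjusted p = 0.00337). It rose by 0.74 ± 0.11 (SE, adjusted p = 0.00124) from ZT03 to ZT07, and no other step was called. The cosine accounted for 70.1% of the variation among its 6 time means, against 86.7% for Ciart, 86.5% for Bhlhe41 and 95.7% to 97.7% for the PER and CRY genes.

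Bhlhe41, which encodes DEC2, has an E-box 153 bases before its start. Its light-phase arrays read -0.57, -0.14, -0.064 and -0.26 at ZT03, 0.43, 0.34, 0.39 and 0.54 at ZT07, and 0.23, 0.63, 0.76 and 0.63 at ZT11. Its dark-phase arrays read 0.11, 0.12, -0.0075 and 0.41 at ZT15, -0.12, 0.0075, -0.24 and -0.043 at ZT19, and -0.12, -0.16, -0.12 and -0.31 at ZT23. The ZT11 arrays were spread from 0.23 to 0.76 and enclosed those of ZT07, while ZT19, ZT23 and ZT03 overlapped. Bhlhe41 followed a cosine of amplitude 0.40 (SE 0.053), or 1.75-fold between trough and peak, that peaked at ZT 10.7 (SE 0.498 h, limma, adjusted p = 5.37e-05). It rose by 0.68 ± 0.11 (SE, adjusted p = 0.00297) from ZT03 to ZT07. From ZT11 to ZT15 it differed by -0.40 ± 0.11 (SE, adjusted p = 0.172), a step that was called without ZT11 replicate 1 (adjusted p = 0.0269). The difference of Bhlhe40 minus Bhlhe41 on the same array was -0.29 ± 0.20 (SD, n = 4) at ZT11, below 0 in all 4 arrays, and between -0.018 and 0.10 in mean at the other times. For Per1 minus Per3 the 6 means lay between -0.24 and 0.26, with an SD of up to 0.47 within a time.

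**Figure D3:**
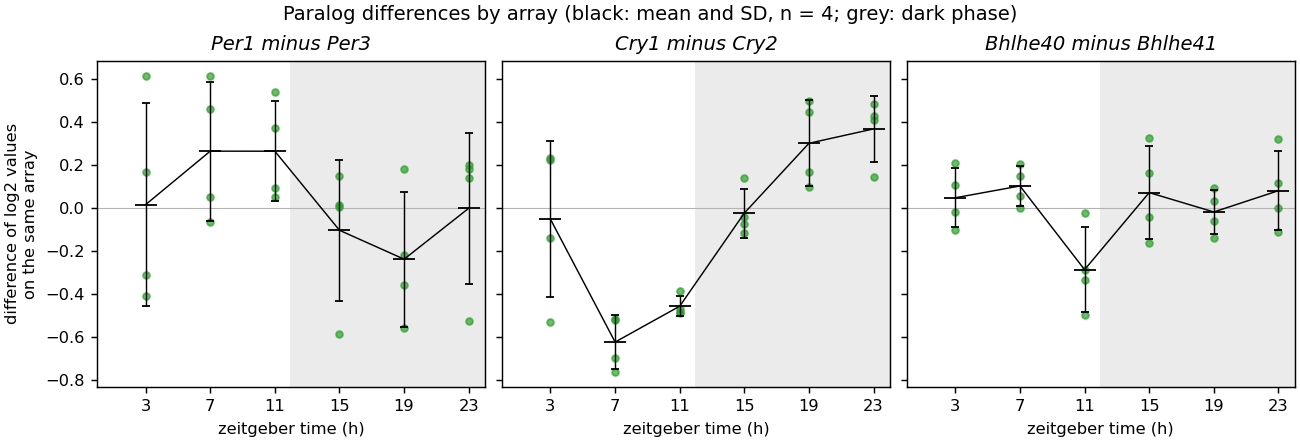
Difference of the log2 values of paralogs on the same array (vertical axis) against zeitgeber time in hours, with 1 point per array and the mean and SD of 4 arrays in black, for Per1 minus Per3, Cry1 minus Cry2 and Bhlhe40 minus Bhlhe41. Cry1 minus Cry2 goes from -0.62 at ZT07 to 0.37 at ZT23, whereas the other paralogs overlap over most times.

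Steps between neighbouring times show where a rise or fall of a repressor passed limma's test. From ZT03 to ZT07, 5 of the 7 rose, namely Per1, Per3, Ciart, Bhlhe40 and Bhlhe41, where 0.0947% of all genes rose, and the median difference was 0.74 over the members and 0.00012 over all genes. From ZT07 to ZT11, 3 rose, namely Per3, Ciart and Cry1 (0.207% of all genes). Across lights-off, from ZT11 to ZT15, only Ciart passed, and fell (0.0902% of all genes). Ciart and Per3 fell from ZT15 to ZT19 (0.126% of all genes), Per3 from ZT19 to ZT23 (0.0496%), and Cry1 from ZT23 to ZT03 (0.126%). In the opposite directions 0 of 7 passed, where the background was 0.108% of genes lower at ZT07, 0.104% lower at ZT11, 0.113% higher at ZT15, 0.0766% higher at ZT19, 0.018% higher at ZT23 and 0.559% higher at ZT03. Of 42 tests over 7 members and 6 steps, 13 passed, 8 upward and 5 downward. Per1, which had the largest SD within times of the 7, had no called fall. It differed by -0.75 ± 0.26 (SE, adjusted p = 0.348 in limma) from ZT11 to ZT15. From ZT15 to ZT19 the difference in Per1 was -0.81 ± 0.26 (SE, adjusted p = 0.280). A step that was not called can therefore still be a change. Neighbouring steps share the arrays of a time, so they are not independent of each other.

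The arrays of neighbouring times can be compared without a model, by whether all 4 of one time lay above all 4 of the other. From ZT03 to ZT07 this held upward for 5 members (1.95% of all genes) and downward for 0 (2%), and from ZT07 to ZT11 upward for 4 (2.16%), Cry2 among them, and downward for 0 (2.05%). From ZT11 to ZT15 it held downward for 3 (1.7%), namely Ciart, Per1 and Per3, and upward for Cry1 (2.46%). From ZT15 to ZT19 it held downward for Per3 and Ciart (2.73%) and upward for 0 (1.99%). Per3 alone was lower without overlap from ZT19 to ZT23 (2.54%; upward 0 members, 1.92%), and Cry1 alone from ZT23 to ZT03 (2.81%; upward 0 members, 4.05%).

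**Figure D4:**
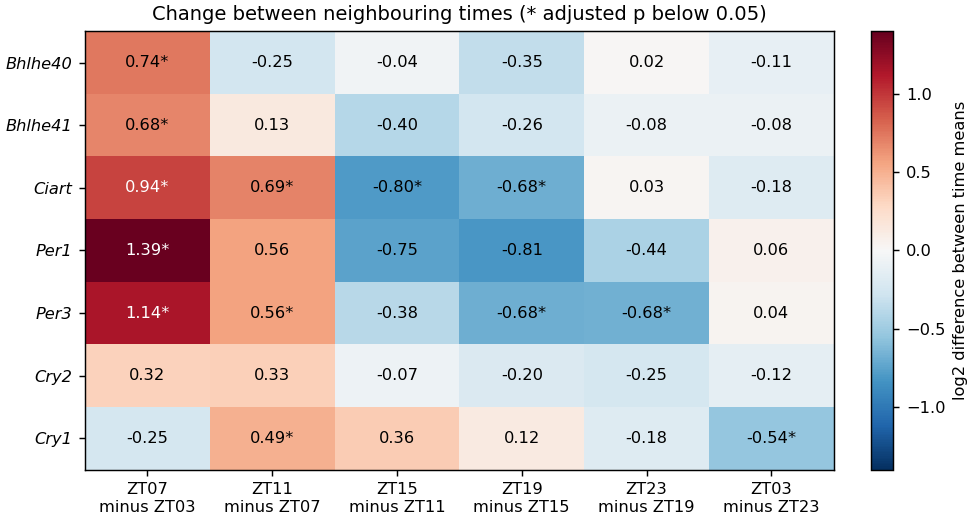
Log2 difference between the means of neighbouring times (columns, later minus earlier, 4 arrays each) for the 7 repressors (rows, ordered by peak time), with red for higher and blue for lower, and a star where limma's adjusted p was below 0.05. The 5 starred steps from ZT03 to ZT07 are all upward, the starred steps after ZT11 are all downward, and the starred downward step of Cry1 is from ZT23 to ZT03.

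Dusk differed from dawn in most of the family. The contrast was chosen because these genes are known to peak around lights-off, so its count is a description and not independent evidence. The mean of ZT11 and ZT15 was higher than that of ZT23 and ZT03 in 6 of 7 members, against 2.06% of all genes, and lower in 0 (1.7% of all genes), with 1.60 ± 0.18 (SE, adjusted p = 4.79e-06) in Per1, 1.53 ± 0.065 (SE, adjusted p = 7.18e-13) in Per3 and 1.15 ± 0.079 (SE, adjusted p = 2.06e-09) in Ciart. In Cry1 this difference was 0.15 ± 0.056 (SE, adjusted p = 0.168). The dark-phase mean (ZT15, ZT19 and ZT23) was higher than the light-phase mean only in Cry1 among the 7, by 0.63 ± 0.046 (SE, adjusted p = 6.51e-08), where 1.89% of all genes were higher. It was lower in 4 members, against 2.49% of all genes, with -0.60 in Per1, -0.47 in Ciart, -0.31 in Per3 and -0.28 in Bhlhe41. Cry2 had 0.035 ± 0.053 (SE, adjusted p = 0.836) and Bhlhe40 -0.19 ± 0.063 (SE, adjusted p = 0.0877). The Per1 call was lost without the 3 arrays of largest spread (adjusted p = 0.0599), and Bhlhe40 was called without ZT03 replicate 1 (adjusted p = 0.0102).

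The fitted peaks came in the order Bhlhe40, Bhlhe41, Ciart, Per1, Per3, Cry2 and Cry1, and the interval of each difference was taken from the residual covariance of the genes on the same arrays. The order of the first 4 was not resolved. Bhlhe41 peaked 0.437 h (95% interval -0.895 to 1.77 h) after Bhlhe40, Ciart 0.379 h (95% interval -0.709 to 1.47 h) after Bhlhe41 and Per1 0.127 h (95% interval -0.855 to 1.11 h) after Ciart. Per3 peaked 0.788 h (95% interval 0.0649 to 1.51 h) after Per1 and 0.916 h (95% interval 0.144 to 1.69 h) after Ciart. Cry2 followed Per3 by 1.32 h (95% interval 0.479 to 2.16 h) and Per1 by 2.11 h (95% interval 1.16 to 3.05 h), and Cry1 followed Cry2 by 4.98 h (95% interval 3.83 to 6.13 h). Of all 21 pairs, the 95% interval left out 0 in 15, and in 10 when the level was divided over the 21 pairs. Those 10 are the 6 pairs with Cry1 and the pairs of Cry2 with Per1, Ciart, Bhlhe40 and Bhlhe41, so the places of Per3 and Cry2 relative to each other and of Per3 among the earlier genes rest on the single interval. The interval of Per1 and Per3 included 0 without any one of ZT03 replicate 4, ZT07 replicates 3 and 4, ZT15 replicate 4, and ZT19 replicates 2 and 4. That of Per3 and Bhlhe40 did without ZT07 replicate 3 or ZT19 replicate 3, and that of Per3 and Ciart without ZT19 replicate 3. Amplitudes differed in 16 of the 21 pairs by the same kind of interval, with Cry1 above Cry2 by 0.16 (95% interval 0.052 to 0.28), whereas Per3 minus Per1 was -0.12 (-0.32 to 0.076) and Bhlhe41 minus Bhlhe40 was 0.094 (-0.022 to 0.21).

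A curve with 24-h and 12-h terms, which lets a peak be narrower than a cosine, moved the peaks of 6 members earlier and that of Cry1 later. They then lay at ZT 8.80 for Bhlhe40, 9.80 for Bhlhe41, 10.4 for Per1, 10.7 for Ciart, 10.9 for Per3, 12.0 for Cry2 and 19.3 for Cry1, with SE from 0.214 h in Ciart to 1.35 h in Cry1. Of the 21 pairs 11 were separated by this curve, and Per1 and Ciart changed places. The intervals of Per3 with Per1, Ciart and Cry2, and of Cry2 with Per1 and Ciart, then included 0, and that of Ciart with Bhlhe40 left it out. Samples were 4 h apart.

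The 12-h component itself was not called in any member, nor in any of the 22180 genes, in limma's test (0% of all genes). An unadjusted p below 0.05 was found in 1402 of the 22180 genes, a limit that a share of 0.05 passes by chance alone. Ciart was closest, with an unadjusted p of 7.73e-06 and an adjusted p = 0.0511. Leaving out single arrays moved the adjusted p of Ciart from 0.0210 to 0.139, below 0.05 without ZT07 replicate 4 or ZT15 replicate 3, and it was 0.394 when arrays were scaled to the same quantiles. Per3 (unadjusted p = 0.00409), Bhlhe41 (0.00917) and Cry1 (0.0342) had adjusted p-values from 0.567 to 0.772, and Per1, Cry2 and Bhlhe40 had unadjusted p-values of 0.136, 0.328 and 0.152.

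**Figure D5:**
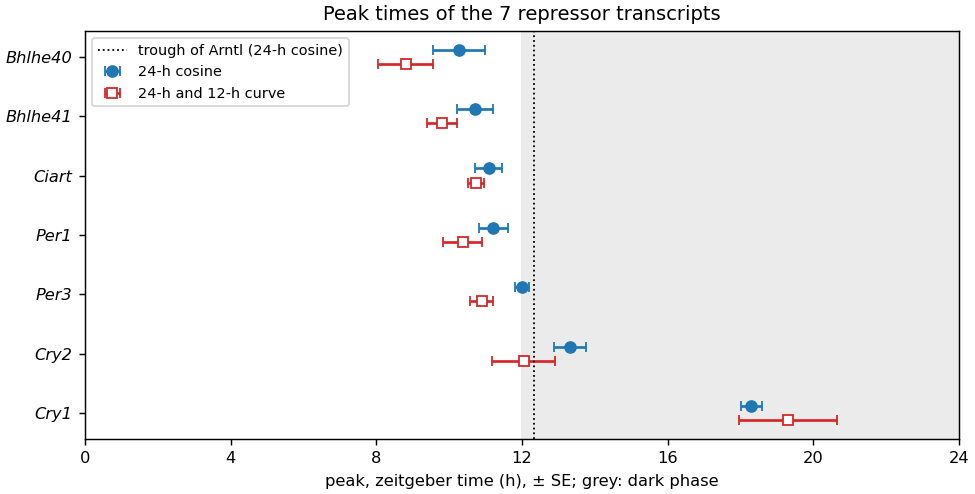
Fitted peak time of each repressor transcript (horizontal axis, zeitgeber time in hours, ± SE from 24 arrays) from a 24-h cosine (filled circles) and from a curve with 24-h and 12-h terms (open squares), with the trough of the 24-h cosine of Arntl as a dotted line. Peaks of 6 members fall between ZT 8.80 and ZT 13.3 under either curve, and that of Cry1 between ZT 18.3 and ZT 19.3.

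Relative to Arntl, the gene of the activator BMAL1, the cosine fits placed most repressors near the trough and Cry1 well after it. The fitted peak of Arntl was at ZT 0.329 and its trough at ZT 12.3. Lags behind the peak of Arntl were 9.93 h for Bhlhe40, 10.4 h for Bhlhe41, 10.8 h for Ciart, 10.9 h for Per1, 11.7 h for Per3, 13.0 h for Cry2 and 17.96 h for Cry1. The 95% intervals of Per1 (10.1 to 11.7 h), Ciart (9.96 to 11.5 h), Bhlhe40 (8.52 to 11.4 h) and Bhlhe41 (9.31 to 11.4 h) ended before 12 h, the trough of the fitted cosine. That of Per3 (11.3 to 12.0 h) held 12 h and that of Cry2 (12.1 to 13.9 h) lay just above it. With the curve of 24-h and 12-h terms every lag moved, to 7.98 h for Bhlhe40, 8.98 h for Bhlhe41, 9.91 h for Ciart, 9.55 h for Per1, 10.1 h for Per3, 11.2 h for Cry2 and 18.5 h for Cry1, so that the side of 12 h on which Cry2 falls depends on the curve. Under that curve 12 h after the peak of Arntl need not be its trough. Cry1, whose lag from the cosine had an interval of 17.2 to 18.7 h, had its highest mean at ZT19, between an Arntl value of -0.97 ± 0.042 (SD, n = 4) at ZT15 and one of 1.30 ± 0.13 at ZT23.

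Other genes with courses most like those of the repressors were found by Pearson's r over the 24 arrays, which share 6 time points, so that r includes the shared time of day. It is given as a description. For Per1 they were Tcap (r = 0.91), Dbp (r = 0.91) and Sh2d3c (r = 0.87), for Per3 Dbp (r = 0.96), Tcap (r = 0.92) and Usp2 (r = 0.91), and for Ciart Dbp (r = 0.90), Tcap (r = 0.88) and Gstt2 (r = 0.86). Dbp, a D-box activator, and Tcap, the titin cap gene, stood on the lists of Per1, Per3, Ciart and Bhlhe40. The set of Bhlhe40 was Dbp (r = 0.79), Tcap (r = 0.77) and Acap2 (r = 0.73), and that of Bhlhe41 was Gdap10 (r = 0.88), Pfkfb3 (r = 0.87) and Dbp (r = 0.86), among them Pfkfb3, a regulator of glycolysis. Cry2 ran with Tef (r = 0.89), Rhobtb1 (r = 0.88) and Usp2 (r = 0.88), of which Tef is a D-box activator and Usp2 a deubiquitinase. Cry1 ran with Mmrn1 (r = 0.85), Homer1 (r = 0.84) and Smarca2 (r = 0.84), including Homer1, a scaffold protein, and Smarca2, a chromatin remodelling ATPase.

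The most opposite course was that of Arntl for Per1 (r = -0.88) and Per3 (r = -0.97), followed by Tspan18 for Per1 (r = -0.88) and Rcan1, a calcineurin inhibitor, for Per3 (r = -0.95). Ciart was opposite to Tspan18 (r = -0.88) and Arntl (r = -0.87), Cry2 to Leo1 (r = -0.92) and Clock (r = -0.87), Bhlhe40 to Cdkn1a (r = -0.75) and Tmem171 (r = -0.74) and Bhlhe41 to Med23 (r = -0.86) and Tspan18 (r = -0.83). Cry1 was opposite to Nr1d1 (r = -0.90), the gene of the repressor REV-ERB alpha, whose fitted peak at ZT 7.56 lay near the lowest Cry1 values, and to Tcp11l2 (r = -0.88). Among the members, r with Per3 was 0.91 for Per1, 0.89 for Ciart, 0.86 for Cry2, 0.85 for Bhlhe41, 0.73 for Bhlhe40 and -0.086 for Cry1.

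Genes whose products modify or remove PER and CRY had a median amplitude of 0.073, against 0.48 over the 7 repressors and 0.040 over all genes. Of 22 measured, 5 had a 24-h rhythm, where 7.61% of all genes did, 3 with a peak in the light and 2 in the dark. They were Usp2, a deubiquitinase with an amplitude of 0.53 (SE 0.047), inside the range of the repressors (2.08-fold, ZT 13.1), the casein kinase genes Csnk1a1 (1.13-fold, ZT 6.88) and Csnk1g2 (1.18-fold, ZT 8.14), Usp7, a deubiquitinase that acts on CRY (1.15-fold, ZT 7.29), and Prkaa2, a catalytic subunit of AMP-activated kinase (1.25-fold, ZT 23.6, adjusted p = 0.0454). Csnk1e, a PER kinase (1.08-fold, adjusted p = 0.518), and Fbxl21, a CRY ubiquitin ligase subunit (1.03-fold, adjusted p = 0.754), did not pass. Of 19 nuclear partners of the PER and CRY complex 2 passed, a share near the 7.61% of all genes and so no result about these partners. With peaks in the light, these were Chd4, a chromatin remodeller (1.27-fold, ZT 9.12), and Ezh2, a histone methyltransferase (1.17-fold, ZT 1.73, adjusted p = 0.0466), whereas Timeless (1.06-fold, adjusted p = 0.772) and Nono (1.07-fold, adjusted p = 0.428) did not.

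The activators, their coactivators and other E-box targets, a list that also holds Usp2, had 15 of 21 measured genes with a 24-h rhythm, against 7.61% of all genes. Of these, 8 had light-phase and 7 dark-phase peaks. The list was chosen with earlier results of these data known, so its count is a description. Arntl, Clock (1.99-fold, ZT 0.835), the REV-ERB gene Nr1d2 (3.46-fold, ZT 10.5) and Dbp (5.08-fold, ZT 11.4) had the smallest p-values. The coactivator gene Crebbp (1.08-fold, adjusted p = 0.332) and the E-box target Klf10 (1.17-fold, adjusted p = 0.223) did not pass. Among inputs to Per1 and other regulators, chosen in the same way, 7 of 20 passed (7.61% of all genes), 2 with light-phase and 5 with dark-phase peaks. They included the D-box repressor Nfil3 (1.78-fold, ZT 21.7), Klf9 (1.66-fold, ZT 10.8) and Fkbp5 (1.66-fold, ZT 14.1), which respond to glucocorticoids, and the serum response factor Srf (1.45-fold, ZT 22.1). Creb1, which mediates cyclic AMP signals to Per1 (1.15-fold, adjusted p = 0.144), and the glucocorticoid receptor gene Nr3c1 (1.10-fold, adjusted p = 0.424) did not pass.

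Markers of some cell types moved with the time of day too. Over all genes the share with a 24-h rhythm was 7.61%, and each count of called markers is to be read beside it. Of 11 macrophage markers 7 had a 24-h rhythm, all with peaks in the dark as in Cry1 and Cry2, and their mean log2 value ran from -0.33 to -0.12 at ZT07 and from 0.070 to 0.26 at ZT15. Of 8 platelet markers 4 passed, all in the dark. The mean over the 8 ran from -0.21 to -0.055 at ZT11, from -0.025 to 0.93 at ZT15 and from 0.056 to 0.63 at ZT19. Among the called platelet markers Ppbp had an amplitude of 1.15, and the others had 0.21 to 0.38. Ventricular cardiomyocyte markers had 3 of 10, fibroblast markers 4 of 10 and endothelial markers 2 of 10 called, and atrial markers 0 of 8, smooth muscle and pericyte markers 0 of 10, and the neutrophil and lymphocyte, red cell, adipocyte, and neuron and Schwann cell lists 0 of 11, 1, 7 and 6 in the same limma test. At an unadjusted p below 0.05 these lists had 4, 5, 1, 0, 1 and 1 genes, in that order, where 4320 of all 22180 genes passed. Their part in the course of the repressors was not tested. Without the 3 arrays of largest spread, 7 of 7 members had a 24-h rhythm.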

How the data were processed

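RNA of snap-frozen hearts was extracted by the TRIzol method and made into biotinylated cRNA, starting from 500 ng, by the Affymetrix protocol, per the labels' protocols. The deposited table holds 34351 probe sets with values read as log2, each centred so that its median over the 24 arrays is 0 within 5e-07. How signals were summarised and normalized is not given in the sources used here, and precision is limited by the number of arrays per time point. A centred table keeps no level, so markers and dim genes could not be checked by level. Genes were named from the platform annotation, with 23521 probe sets naming 1 gene, 1814 several and 9016 none, and probe sets were averaged into 22180 genes.

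Tests came from limma 3.58.1 (R 4.3.3). Their p-values were adjusted by the Benjamini-Hochberg method across 22180 genes, and an adjusted p below 0.05 counted as a call. A 24-h cosine and sine fit gave amplitudes, peak times and their SE. A fit of 6 time means gave the steps and contrasts, with 18 residual degrees of freedom. Intervals of peak differences and of lags used the delta method with 21 degrees of freedom. The fits were tested on simulated data. Named genes are the 7 members, Arntl, the 3 genes most alike and 2 most opposite to each member without predicted genes, and for each pathway list up to 4 called genes of smallest p and 2 not called. For the turnover list Prkaa2, which completes its 5 called genes, was added after its values were seen. Members, lists and promoter motifs were chosen with earlier results of these data, or the sequences, known. Replicate numbers were not used to pair arrays across times, except in the alternative with the number as a block. The alternatives left out each array and changed weights, scaling, centring, moderation, probe set choice, genes tested, block and waveform.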

Additional observations from a re-analysis of the deposited data

Results flagged for a closer look

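Of 42 groups of 4 arrays, over 7 members and 6 times, 2 held an array far from the other 3 relative to the range of the group, and chance flags about 1 in 20 groups. Cry2 at ZT19 had a value of 0.20 in replicate 1, where the nearest other array was at -0.0044. Ciart at ZT23 had -0.13 in replicate 4, where the nearest other array was at -0.38. ZT23 replicate 4 is among the 3 arrays of largest spread. Both genes had a 24-h rhythm without the array concerned.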

How the results depend on the processing

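All 7 members had a 24-h rhythm and any difference among times in each of the 24 fits that left out 1 array and in each of the 8 other settings of these tests. Over the fits without 1 array, calls in steps between neighbouring times went from 12 to 14 (13 with all arrays), members different between night and day from 5 to 6, members different between dusk and dawn stayed at 6, separated pairs went from 13 to 15, and members with a 12-h component from 0 to 1. That member was Ciart, which was also the 1 member called with array weights, with array medians subtracted and with protein-coding genes only. The cause was not tested, except that the last setting tests fewer genes. All 7 lags behind Arntl moved under the curve with 12-h terms, that of Cry2 from 13.0 to 11.2 h and that of Per3 from 11.7 to 10.1 h. Over 33 alternatives and 120 results, a change of direction was possible only for differences between times and between peaks, and no called one changed direction. The curve with 12-h terms covered only peaks and lags. Amplitudes went from 0.99 to 1.07 for Per1 and from 0.29 to 0.34 for Bhlhe40 without 1 array, and in the other settings from 0.93 to 1.04 for Per1 and from 0.82 to 0.93 for Per3. Without the 3 arrays of largest spread 4 members differed between night and day and 13 pairs were separated, and the curve with 12-h terms separated 11 pairs. Replicate numbers recur across times. Deviations from the time means of arrays with the same number had correlations from -0.23 to 0.23 with a median of -0.010, and 5 of 60 such pairs of arrays were above 0.1. These values over all genes show no general pairing, but they cannot exclude an order behind the numbers. Per1 rose from replicate 1 to replicate 4 at ZT03, ZT07 and ZT11, though not at the dark-phase times, and the cause was not tested. With the replicate number as a block, 7 members had a 24-h rhythm and 15 pairs were separated. A filter on dim genes was not possible with centred values.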

Other observations

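Some arrays stood at the edge of their time point in most repressors. At ZT03, replicate 1 had the lowest of the 4 values in 5 of the 7 members, namely Per1, Per3, Cry2, Bhlhe40 and Bhlhe41. At ZT07, replicate 4 had the highest value in 5 members, namely Per1, Per3, Cry2, Ciart and Bhlhe41. Replicate 4 of ZT15 was highest in Per3, Cry1, Cry2, Bhlhe40 and Bhlhe41. These arrays were chosen after their values were seen, and no test was run.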
